A study of Fragaria vesca with 3 samples.

Results

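The genes described here are those of woodland strawberry (Fragaria vesca) whose deposited description names gibberellin, DELLA, cytokinin, brassinosteroid, an isopentenyltransferase or a two-component response regulator, leaving out regulators named APRR or pseudo-response. Of the 18238 genes with a peak of the MADS-domain factor FvSEP3 in either replicate list, 52 fitted this rule, and 116 peaks were assigned to them. They were 24 gibberellin genes, 26 cytokinin genes, 1 brassinosteroid gene and 1 gene, PRR95, that is named as a response regulator but belongs by name to the clock-type regulators, so it was kept apart from cytokinin. No gene with a peak was described as an isopentenyltransferase. The peaks come from DNA affinity purification sequencing, an in vitro assay in which purified DNA is captured by a tagged factor and the captured fragments are sequenced. The DNA was taken from nuclei of wild-type fruit at 30 days post anthesis, and the series holds 2 IP (immunoprecipitation) replicates and 1 input library, which serves as the negative control. The assay measures binding to naked DNA, so it holds no expression level and no chromatin state.

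Gibberellins are growth hormones made by a chain of oxidases, of which the 20-oxidases and the 3-beta-dioxygenases carry out the last steps and the 2-beta-dioxygenases inactivate the product. The hormone binds the receptor GID1, and the complex leads DELLA proteins, which hold growth back, to be destroyed. Cytokinins are released in active form by LOG enzymes and broken down by cytokinin dehydrogenases. Their signal passes from histidine kinase receptors through phosphotransfer proteins to response regulators, where, in Arabidopsis, type-B members activate transcription and type-A members, themselves induced by cytokinin, dampen the response. Brassinosteroids are sensed at the cell surface by the receptor kinase BRI1 together with its associated kinase BAK1. SEPALLATA proteins such as SEP3 are known for their role in floral organ identity.

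Peaks of the 2 replicates were counted as shared where they had at least 1 bp in common. Of the 52 genes, 32 (61.5%, 95% Wilson interval 48.0 to 73.5) had a shared peak, close to the 59.7% of all genes with a peak. A further 12 genes were found in replicate 2 only (23.1%, against 22.4% of all genes), 7 in replicate 1 only (13.5%, against 14.8%), and 1 had peaks in both lists that did not overlap. The count by hormone was 13 of 24 gibberellin genes and 17 of 26 cytokinin genes, and both the brassinosteroid gene and PRR95 had one. When a −log10 q of at least 10 was asked of both peaks, 16 genes (30.8%) had a shared peak, beside 26.5% of all genes at the same threshold. In the authors' deposited merged list 32 of the 52 genes had a peak, beside 58.5% of all genes. Counted by peak, 39 of the 50 replicate 1 peaks of these genes were shared (78.0%, interval 64.8 to 87.2), against 70.5% over all replicate 1 peaks, and 40 of the 66 replicate 2 peaks (60.6%, interval 48.5 to 71.5), against 62.0%. The shared peaks made up 39 places in the genome, and 6 genes held more than 1 of them (11.5%, against 11.7% of all genes).

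**Figure D1:**
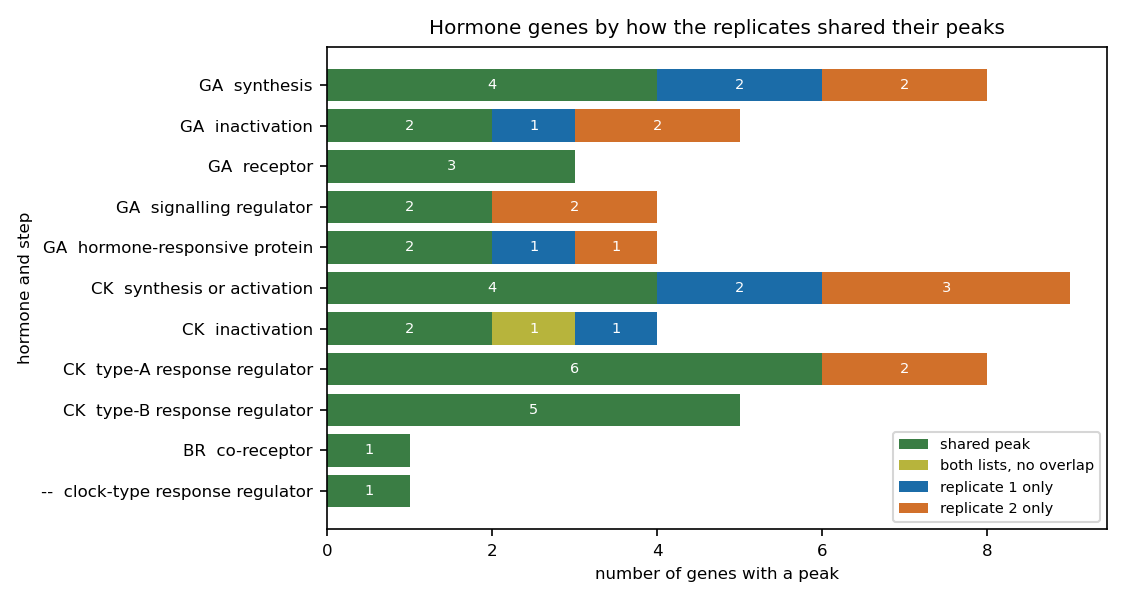
Bars give the number of genes with a peak at each hormone step (GA, gibberellin; CK, cytokinin; BR, brassinosteroid; no hormone is marked by dashes), coloured by whether the replicates shared a peak. All 3 gibberellin receptors, all 5 type-B response regulators, 4 of 8 gibberellin synthesis genes and 4 of 9 genes of cytokinin synthesis or activation had a shared peak, beside 59.7% of all genes with a peak. Differences between steps were not tested.

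By role, all 3 gibberellin receptors, 2 of 4 DELLA genes and 11 of 13 response regulators had a shared peak. For the response regulators FvH4_3g40540 and FvH4_2g00450 the only shared peak lay in an exon of another gene. Among enzyme genes, 4 of 8 gibberellin synthesis genes, 2 of 5 gibberellin inactivation genes, 4 of 9 genes of cytokinin synthesis or activation and 2 of 4 cytokinin dehydrogenases had one. Over all genes with a peak the share was 59.7%, and these small counts were tested neither against it nor against each other.

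Fold enrichment, which the authors' peak caller gave for each peak as its signal over a background estimate, reached its highest mean among these genes at a gibberellin receptor. The value was 4.01 in replicate 1 and 4.56 in replicate 2, a mean of 4.28 ± 0.389 (SD, n = 2), at FvH4_2g24370 (GID1B-like). This peak lay in intergenic DNA at -5284 bp from the gene start, on chromosome 2 from 19915319 to 19915978 in replicate 1. Coordinates and distances are the authors' own, and the build behind them was not given in the sources used here. It stood above 93.4% of all replicate 1 peaks and 98.9% of all replicate 2 peaks. The single replicate 1 peak overlapped 2 replicate 2 peaks here, the weaker of them at 3.16. The same gene had another shared peak, classed as 5' UTR, from 19909319 to 19910291, with 3.25 in replicate 1 and 4.31 in replicate 2. The 2 replicates differed more there than upstream. The deposited class names no gene for a UTR, so UTR peaks here and below are linked to a gene by their assignment only.

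The other receptor genes were bound in a like arrangement or inside the gene. FvH4_6g04960 (GID1C-like) had an intergenic peak at -2908 bp with 3.65 in replicate 1 and 3.70 in replicate 2, and a weaker one in its 5' UTR with 2.63 and 2.92. FvH4_3g11720, the other GID1B-like gene, had a peak in its only intron with 2.82 and 2.63, below the median of each list (3.05 over all replicate 1 peaks and 3.004 over all replicate 2 peaks). None of the 3 receptor genes had a peak within 2 kb upstream of its start in either list.

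DELLA genes, the repressors that act just after the receptors, were bound inside the gene. FvH4_1g04080 (GAI-like) had a peak in its 5' UTR, on chromosome 1 from 2158047 to 2158288 in replicate 1, with 3.89 in replicate 1 and 3.50 in replicate 2. FvH4_6g53920 (RGL1-like) had one in exon 1 with 3.69 and 3.45, and a promoter peak at -1023 bp with 2.92 in replicate 2 only. The shared peaks of both genes stood above the 75th percentile of each list. The neighbouring RGL1-like genes FvH4_5g39080 and FvH4_5g39090 were found in replicate 2 only, with 2.45 in the 5' UTR of the first and 3.03 in the exon of the second.

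Among gibberellin synthesis genes, 4 of the 5 shared peaks were intergenic and lay downstream of the gene start, outside the gene body. The 3-beta-dioxygenase-like gene FvH4_1g04200, of the step that yields active gibberellin, had the strongest of them, 3.61 in replicate 1 and 4.64 in replicate 2, at 2136 bp, on chromosome 1 from 2219849 to 2220091. FvH4_6g30780, of the same family, had one at 1978 bp with 4.08 and 3.28, and a second near its start with 3.23 in exon 1 and 3.06 in the 5' UTR. In each of these families some genes were seen in 1 replicate only.

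The shared peaks of the 20-oxidase genes were also intergenic and downstream of the gene start. FvH4_7g28670 (gibberellin 20 oxidase 1) had its shared peak at 3502 bp with 3.64 in replicate 1 and 3.43 in replicate 2, and FvH4_2g35050 (20 oxidase 2-like) had one at 4167 bp with 2.50 and 3.32. Both genes also had a promoter peak in replicate 2 only, at -946 bp with 3.07 and at -6 bp with 3.15, and the first had a weak one in its 3' UTR with 2.08. The 3 genes described as 20 oxidase 1-like were each in a single list, FvH4_5g19970 and FvH4_7g12600 in replicate 1 with 3.42 at 9101 bp and 2.59 at -1688 bp, and FvH4_7g12610 in replicate 2 with 2.69 at -31 bp. The third 3-beta-dioxygenase-like gene, FvH4_2g30010, had 1 peak, in exon 1, with 3.001 in replicate 2.

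Gibberellin inactivation genes held 2 shared peaks among 5 genes. FvH4_3g21910 (2-beta-dioxygenase 8-like) had an intergenic peak at 5412 bp with 3.66 in replicate 1 and 3.29 in replicate 2, and FvH4_1g26760 (2-beta-dioxygenase 2) had one in its 5' UTR with 3.44 and 2.75. FvH4_4g20730 (2-beta-dioxygenase 2-like) was found in replicate 2 only, yet with 3.45 at -1820 bp it exceeded 76.9% of that list. A weaker peak of the same gene lay in intron 1 with 3.001. FvH4_3g38920 (2-beta-dioxygenase 8), in replicate 1 only, and FvH4_3g16760 (2-beta-dioxygenase 1-like), in replicate 2 only, had 2.98 in the 5' UTR and 2.49 in the 3' UTR. FvH4_3g21910 had a further peak with 2.52, in replicate 1 only. It was classed as 3' UTR although it lay at -2684 bp, upstream of the start of the assigned gene.

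Gibberellin-regulated proteins, small cysteine-rich proteins named for their response to the hormone, gave the strongest peak found in a single replicate. FvH4_6g50190 (gibberellin-regulated protein 14) had 4.21 in exon 1 in replicate 1, above 96.3% of that list and with a −log10 q of 22.3, and no peak in replicate 2. The nearby FvH4_6g50260 (14-like) had a shared peak with 3.30 in replicate 1 and 3.51 in replicate 2 within the gene. FvH4_4g03500, also 14-like, had the lowest shared values of the gibberellin genes, 2.40 and 2.19 in intergenic DNA at 2177 bp, and FvH4_6g48590 (6-like) was seen in replicate 2 only with 2.96 in the 5' UTR. FvH4_6g50260 and FvH4_4g03500 each had a further weak peak in 1 list, with 2.41 in replicate 1 and 2.22 in replicate 2.

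**Figure D2:**
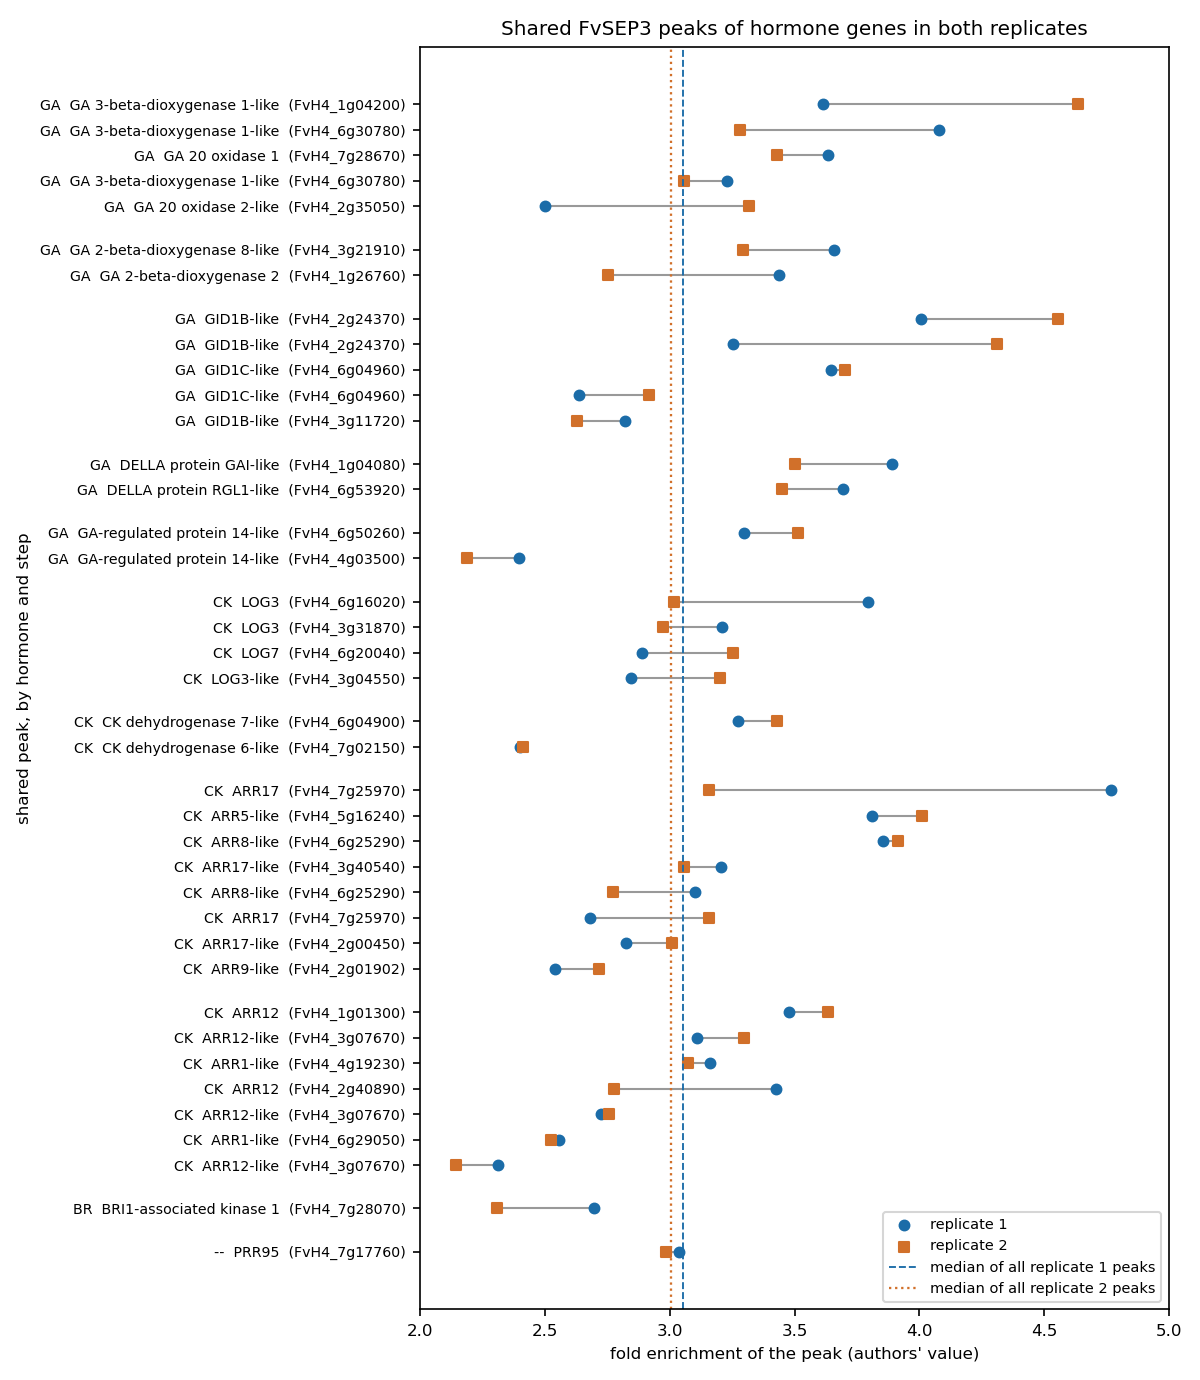
Fold enrichment (horizontal axis, the authors' value for each peak) of the 39 shared peaks, with replicate 1 as circles and replicate 2 as squares joined by a line, ordered by hormone and step, and dashed and dotted lines at the median of all peaks of each list. Values ran from 2.14 to 4.77, and the widest gap between replicates, 4.77 against 3.16, was at ARR17.

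Type-A response regulators, which in Arabidopsis dampen cytokinin signalling, had a shared peak in 6 of 8 genes and included the highest single value among the 52 genes. FvH4_7g25970 (ARR17) had 4.77 in replicate 1 and 3.16 in replicate 2 in its 5' UTR, on chromosome 7 from 19752839 to 19753184, a mean of 3.96 ± 1.14 (SD, n = 2). Replicate 1 placed this peak above 99.4% of its list and replicate 2 above 60.6%, so its rank rests on replicate 1. FvH4_5g16240 (ARR5-like) was more even, with 3.81 and 4.01 (mean 3.91 ± 0.141, SD, n = 2) at the gene start, on chromosome 5 from 9266052 to 9266703. FvH4_6g25290 (ARR8-like) also had close values, 3.85 and 3.92 at -3191 bp, and a second shared peak in intron 3 with 3.10 and 2.77.

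Some type-A peaks lay inside another gene than the one they were assigned to, by the deposited annotation. The second shared peak of FvH4_7g25970 (2.68 and 3.16) lay in exon 3 of FvH4_7g25980. The only shared peak of FvH4_3g40540 (ARR17-like, 3.20 and 3.06) lay in exon 16 of FvH4_3g40550, and that of FvH4_2g00450 (ARR17-like, 2.82 and 3.01) in exon 7 of FvH4_2g00430. FvH4_2g00450 also had a promoter peak at -210 bp with 3.41 in replicate 2 only. The upstream peak of FvH4_6g25290 was assigned to FvH4_6g25310, described as an F-box/kelch-repeat protein, in the authors' deposited merged list. FvH4_2g01902 (ARR9-like) had a shared intron peak with 2.54 and 2.72. The type-A genes seen in replicate 2 only were FvH4_4g35230 (ARR5) with 3.38 at -1449 bp and FvH4_2g27180 (ARR8-like) with 2.13 in its last exon.

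Type-B response regulators, the transcription factors of the cytokinin pathway, had a shared peak in all 5 genes, mostly in the gene body. FvH4_1g01300 (ARR12) led with 3.48 in replicate 1 and 3.63 in replicate 2 in exon 3, on chromosome 1 from 649893 to 650205. FvH4_3g07670 (ARR12-like) had 3 separate shared peaks, more than any other of the 52 genes, with 2.72 and 2.76 in its promoter at -195 bp, 2.31 and 2.14 in exon 3, and 3.11 and 3.30 in intergenic DNA at 3723 bp. The first 2 of these were below the median of each list and the last was above it.

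The other type-B genes had 1 shared peak each. FvH4_2g40890 (ARR12) had it in the 5' UTR with 3.42 and 2.77, FvH4_4g19230 (ARR1-like) in exon 3 with 3.16 and 3.07, and FvH4_6g29050 (ARR1-like) at the border of intron 4 and exon 5 with 2.55 and 2.52. FvH4_4g19230 also had the strongest replicate 2 peak without a partner among the 52 genes, 3.84 at -2286 bp, and 1 in its 3' UTR with 2.60, and FvH4_6g29050 had 1 at 7137 bp with 2.72, all in replicate 2 only. Each of the 5 genes therefore carried at least 1 place bound in both replicates, and the fold enrichment of those places went from 2.14 to 3.63.

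LOG enzymes, which turn cytokinin nucleotides into the active bases, had a shared peak in 4 of 7 genes. FvH4_6g16020 (LOG3) was the strongest, in intron 3, with 3.79 in replicate 1 and 3.02 in replicate 2, and it had 2 more peaks in replicate 2 only, with 3.01 in intron 1 and 2.62 at -1815 bp. The other 3 shared peaks were intergenic, at -2234 bp from FvH4_3g31870 (LOG3, 3.21 and 2.97), at -9537 bp from FvH4_6g20040 (LOG7, 2.89 and 3.25) and at 2763 bp from FvH4_3g04550 (LOG3-like, 2.84 and 3.20). For these 3 the fold enrichment was above the list median in one replicate and below it in the other.

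Strong LOG peaks also occurred without a partner. FvH4_2g31610 (LOG8) had 3.85 in intron 1 in replicate 1, above 90.2% of that list, and FvH4_3g03400 (LOG1-like) had 3.45 in intron 4 in replicate 1. FvH4_3g04300, also LOG1-like, had 2 intron peaks in replicate 2 only, with 2.61 and 3.13. FvH4_7g29611 and FvH4_7g29620 are described as cytokinin hydroxylase-like, after the enzymes that make trans-zeatin type cytokinins. Both were in replicate 2 only, with 2.31 at -202 bp and 2.85 in exon 4.

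Cytokinin dehydrogenases, the enzymes that degrade the hormone, had shared peaks upstream of 2 of 4 genes. FvH4_7g02150 (dehydrogenase 6-like) had a promoter peak at -646 bp with 2.40 in replicate 1 and 2.41 in replicate 2, the closest pair of values among all 39 places but low in both lists, above 8.70% and 10.8% of peaks. It also had a replicate 1 peak at -3528 bp with 2.19. FvH4_6g04900 (dehydrogenase 7-like) had one just beyond 2 kb, at -2296 bp, with 3.27 and 3.43. FvH4_1g07620 (dehydrogenase 3) was listed in both replicates without overlap, with 3.43 in exon 1 in replicate 1 and 2.58 at -7029 bp in replicate 2, and its neighbour FvH4_1g07610 (dehydrogenase 2) had only a replicate 1 peak at 6661 bp with 2.62.

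The brassinosteroid gene was FvH4_7g28070, described as BRASSINOSTEROID INSENSITIVE 1-associated receptor kinase 1, the co-receptor that also serves in immune signalling. Its shared peak lay in exon 5, on chromosome 7 from 20861070 to 20861400, with 2.70 in replicate 1 and 2.31 in replicate 2, both below the list medians. PRR95 (FvH4_7g17760) had an intergenic peak at -3297 bp with 3.04 and 2.98.

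Promoter peaks, within 2 kb upstream of the gene start, were found in both replicates for 3 of the 52 genes (5.77%, 95% Wilson interval 1.98 to 15.6), against 13.7% of all genes with a peak. All 3 were cytokinin genes, FvH4_5g16240 (ARR5-like), FvH4_3g07670 (ARR12-like) and FvH4_7g02150 (cytokinin dehydrogenase 6-like), and no gibberellin gene was among them. The 2 replicates differed in this respect. Replicate 1 gave a promoter peak for 4 genes (7.69%, against 21.0% of all genes) and replicate 2 for 12 (23.1%, against 23.4%), so the share was below that of all genes in replicate 1 and close to it in replicate 2. With a 3 kb promoter the count in both replicates was 7 (13.5%, against 16.7% of all genes), and at a −log10 q of at least 10 it was 1 (1.92%, against 5.54%).

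**Figure D3:**
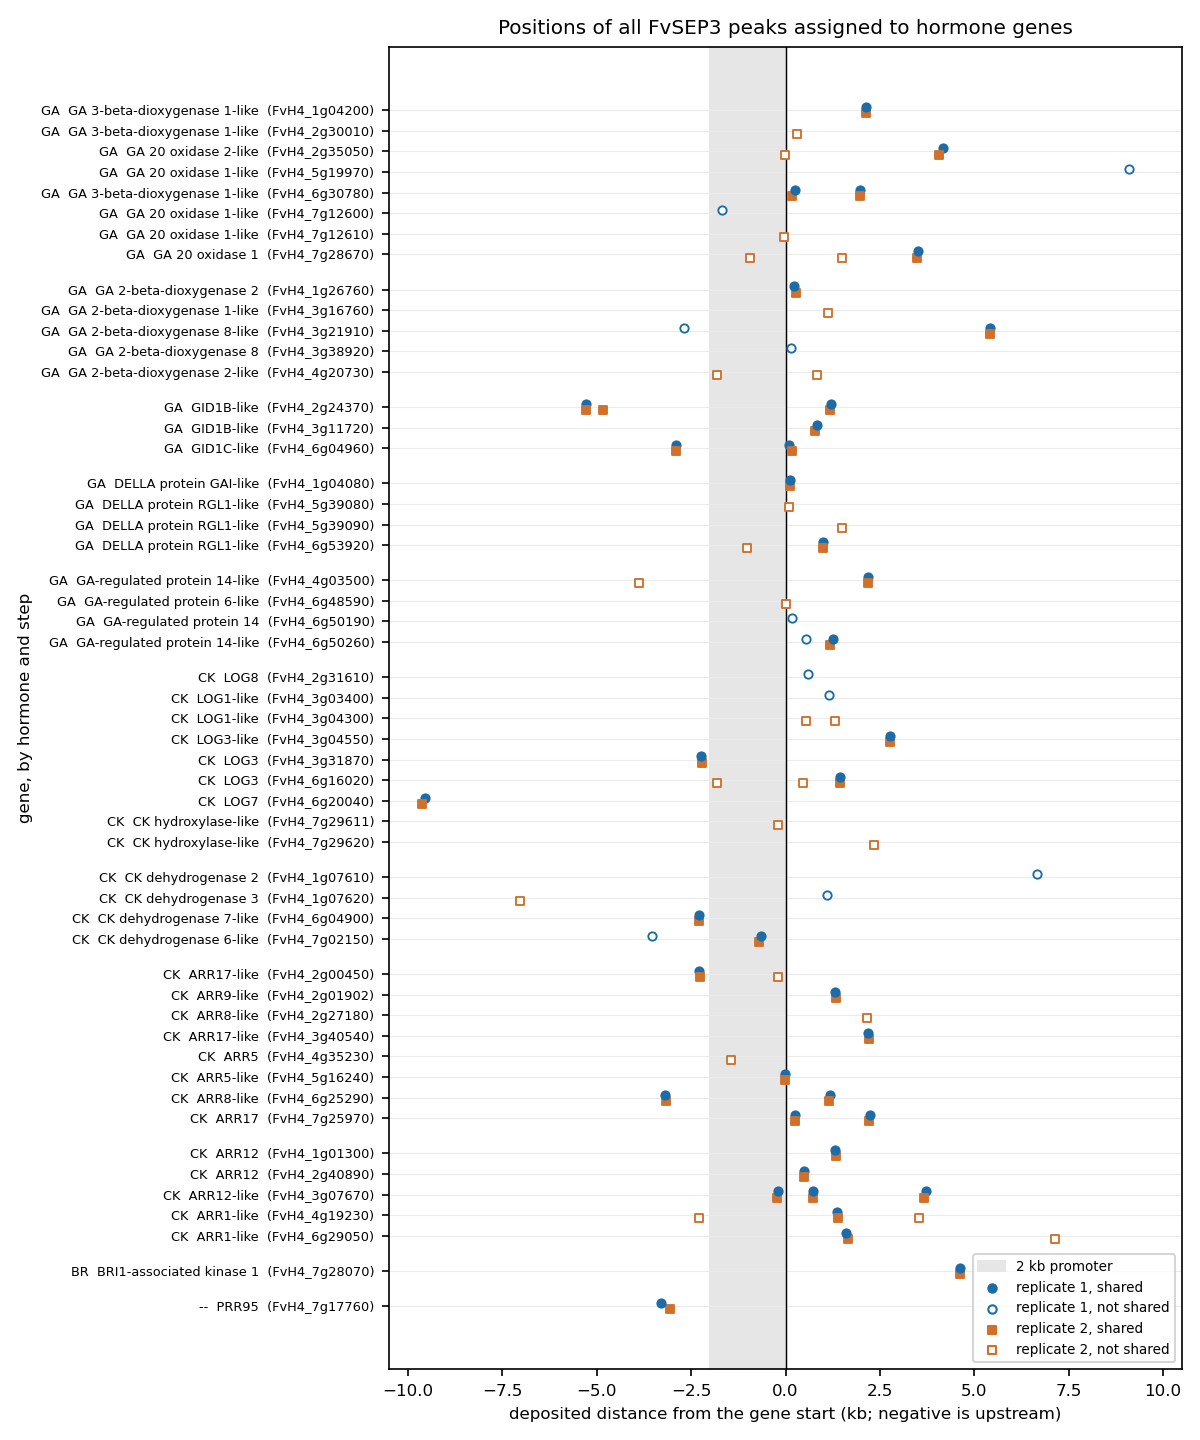
Distance of each of the 116 peaks from the start of its gene (horizontal axis in kb, negative upstream), 1 row per gene, with circles for replicate 1, squares for replicate 2, filled where shared, and the 2 kb promoter shaded. Few filled symbols lie in the shaded band (3 genes), and most shared peaks lie beyond the band or inside a gene. In some cases that gene is not the assigned one.

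Intergenic peaks made up 15 of the 39 shared replicate 1 peaks (38.5%, interval 24.9 to 54.1), against 21.5% of all shared replicate 1 peaks. Gene bodies held 21 of them (53.8%, interval 38.6 to 68.4), against 57.1%, made up of 9 exon, 6 intron and 6 5' UTR peaks, with none in a 3' UTR. This class counts a peak inside any gene. The exon peaks assigned to FvH4_2g00450, FvH4_3g40540 and FvH4_7g25970 lay in an exon of another gene than the assigned one. Of the 16 shared gibberellin peaks 8 were intergenic, with 6 on the downstream side and 2, both at receptors, on the upstream side. Of the 21 shared cytokinin peaks 6 were intergenic, 4 upstream and 2 downstream. Over all genes the intergenic shared peaks were 48.7% upstream and 51.3% downstream. These differences were not tested, and with so few peaks the intervals are wide.

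**Figure D4:**
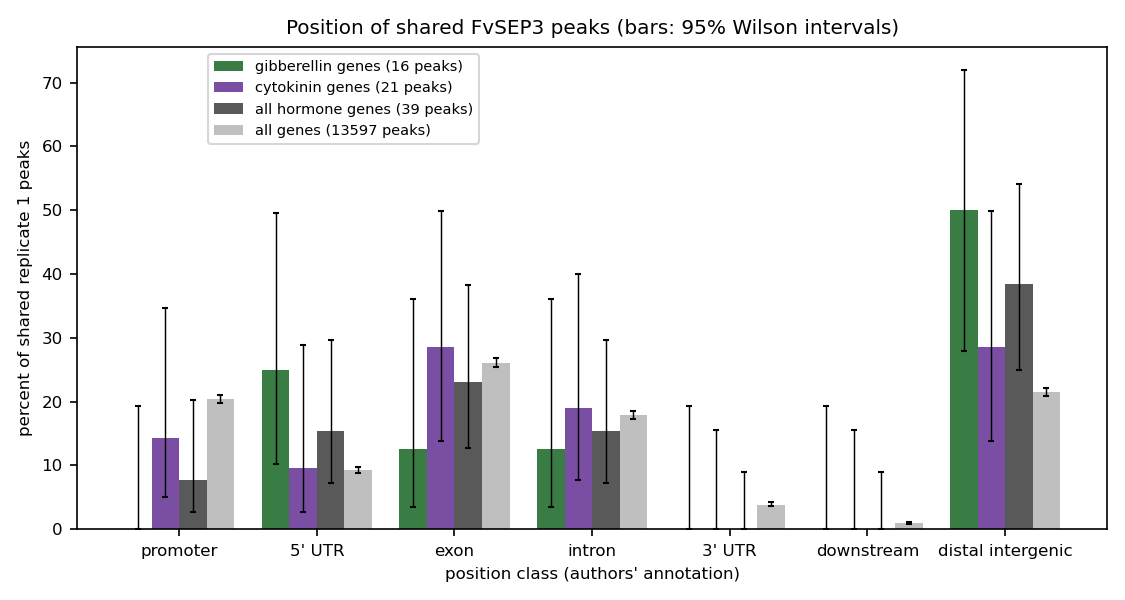
Percent of shared replicate 1 peaks (vertical axis) in each position class of the authors' annotation, for gibberellin genes, cytokinin genes, all hormone genes and all genes, with 95% Wilson intervals for counting error. The intergenic share was 8 of 16 peaks for gibberellin genes, 28.6% for cytokinin genes, 38.5% for all hormone genes and 21.5% for all genes.

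In strength the shared hormone gene peaks were close to those of all genes. Their median fold enrichment was 3.21 in replicate 1 and 3.16 in replicate 2, against 3.12 and 3.12 over all shared peaks. Gibberellin genes had a median of 3.52 in replicate 1 over 16 shared peaks and cytokinin genes one of 3.11 over 21. For the mean of both replicates the medians were 3.50 and 3.09. The difference was not tested. Replicate 1 had the higher value at 20 of the 39 places and replicate 2 at 19. The SD of the 2 values had a median of 0.152 over these places, against 0.243 over all 13665 overlapping pairs. The peak midpoints were a median of 19.5 bp apart, against 28 bp. The units differ, since a place was taken with its strongest peak in each list and the pairs include every overlap. Neither difference was tested.

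Further genes were listed by words under the same pathways but are not named by the word rule. Of these 52, 36 had a shared peak (69.2%, beside 59.7% of all genes), and 6 had a promoter peak in both replicates (11.5%, beside 13.7%). These differences were not tested. Early gibberellin synthesis, the SPINDLY genes and the F-box protein GID2 gave 14 of 18, led by the ent-copalyl diphosphate synthase-like gene FvH4_2g23440 with 4.01 in replicate 1 and 4.85 in replicate 2 in intergenic DNA at -4929 bp. Histidine kinases, phosphotransfer proteins and purine permeases, listed under cytokinin, also gave 14 of 18. Most of those 14 were purine permeases, which were matched by name only and need not act on cytokinin. Some of them, FvH4_3g06160, FvH4_3g06161 and FvH4_3g06171, had shared peaks near each other on chromosome 3. Of the histidine kinases with a shared peak, FvH4_5g39340 (CKI1), FvH4_2g37120 (histidine kinase 5) and FvH4_2g19840 (kinase M-like) are not named as cytokinin receptors. FvH4_6g41180 (histidine kinase 2-like) had a peak in replicate 1 only. Among the phosphotransfer genes FvH4_6g29740 had a shared peak. FvH4_2g35290 was found in replicate 1 only and FvH4_6g32380 in replicate 2 only. The strongest of the 18 included the receptors FvH4_4g23590 (histidine kinase 3) with 3.53 and 4.21 in its 5' UTR and FvH4_4g33130 (histidine kinase 4) with 3.50 and 3.97 in its promoter at -73 bp, and the purine permease FvH4_3g06161 with 3.71 and 4.33.

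Brassinosteroid synthesis, inactivation and signalling gave 8 of 16. They were led by FvH4_1g03910 (a cytochrome P450 of the family that inactivates the hormone) with 3.93 and 3.82 in an intron, by FvH4_2g34560 (BRI1 kinase inhibitor 1, which restrains the receptor) with 3.71 and 3.70 in an exon, and by FvH4_6g27640 (shaggy-related protein kinase zeta) with 3.27 and 3.84 in an intron. The BRI1-like receptor gene FvH4_3g41420 had a promoter peak in both replicates with 2.19 and 2.74, and FvH4_2g34560 also had a promoter peak in both. The synthesis genes FvH4_7g24370 (cytochrome P450 90A1) and FvH4_1g13420 (90B1) had shared peaks with 3.15 and 2.54, and with 2.44 and 2.28. No shared peak was found for FvH4_6g12130 (DET2, an early synthesis enzyme), FvH4_3g07480 (shaggy-related kinase eta) or FvH4_1g14040 (BES1/BZR1 homolog 2), each of which had a peak in 1 list only. The other gene of the BES1/BZR1 family, the pathway's transcription factors, was FvH4_3g07150 (homolog 4), which had a shared peak in its 3' UTR with 2.89 and 2.60.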

How the data were processed

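Peaks came from 2 IP replicates, and 1 input library has no list here. The submitters' processing notes name BWA for alignment and MACS2 for peak calling. Versions, settings and genome build are not given in the sources used here. Each replicate list held, per the file headers, each peak's −log10 q-value, −log10 p-value and fold enrichment (a ratio), with gene, position class and distance as the authors deposited them. The lists held 19298 and 21823 peaks, with no fold enrichment below 2.001 and no −log10 q below 3.03. The files give no read counts, so depth is unknown. The merged list of 13283 peaks holds the authors' deposited means of both replicates, and 4 of its value columns were not used.

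Members were matched by words in the descriptions, which need not show that a gene acts in the pathway, and sorted by hormone and step. Members and gene lists were chosen with earlier results of these data known. A script overlapped the lists with Python 3.11.15 and pandas 2.3.3, and Wilson intervals came from scipy 1.17.1. Intervals cover counting error only. The overlap code was tested on 20 simulated lists with a known answer. Their peaks had equal lengths and at most 1 partner each, so the grouping of several overlapping peaks into 1 place was not covered. There is 1 condition, so no test between groups was made, and word lists were described by counts beside those of all genes. The labels call the IP replicates biological and do not say whether they came from separate plants. A mean ± SD describes the 2 deposited values.

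The rule for named genes took members with a promoter peak in both lists, the 3 strongest of each step, those with 2 or more shared peaks and single-list peaks at or above the 75th percentile of their list. The other members were named too, so that each is accounted for. The list of other pathway genes was set by words, with the 3 strongest named, and further genes of it were chosen after their values were seen. Alternatives were overlap of at least 50% of both peaks, a −log10 q of at least 10, peaks at or above the list median in fold enrichment, each replicate alone, the merged list, 1 and 3 kb promoters, and members without gibberellin-regulated proteins and the BRI1-associated kinase. Leaving out PRR95 was added after seeing the data. No promoter or protein sequence was used here. The reference table, of assembly FraVesHawaii_1.0, held the proteins of 40 of the 52 members and was not used for positions.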

Additional observations from a re-analysis of the deposited data

How the results depend on the processing

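Of 42 values recomputed under other settings, 27 stayed within the limits set for a change, which were 1.5 times for counts and 1 SD of the 2 lists for shares. The number of genes with a shared peak (32) fell to 16 at a −log10 q of at least 10 and to 18 among peaks at or above the list median, and 16 of the 32 genes kept a shared peak under both of these, under overlap of at least 50% and in the merged list. Counting any peak of a single list, shared or not, gave 40 genes in replicate 1 and 45 in replicate 2, which is a different measure. Beside this, 13.5% of the 52 genes were in replicate 1 only and 23.1% in replicate 2 only, against 14.8% and 22.4% of all genes. For cytokinin the count of 17 went to 7 and 9 under these thresholds. For gibberellin the count of 13 went to 9 under either, and genes with any peak in a single list numbered between 17 and 20. For brassinosteroid the count of 1 went to 0 under either threshold. These falls under the thresholds come with fewer peaks in each list. At a −log10 q of at least 10 the share of all genes with a shared peak fell from 59.7% to 26.5%. That of the 52 genes fell from 61.5% to 30.8%. No share over all genes was computed for the median threshold or for the shares of peaks below. These moves are therefore not read as particular to the hormone genes, and the hormones were not tested against each other. The number of genes whose promoter held a peak in each of the 2 lists (3) went to 1 under either threshold, to 7 with a 3 kb promoter and to between 4 and 12 with a single replicate, replicate 2 giving 12. The share of replicate 1 peaks that were shared (78.0%) went to 65.4% at a −log10 q of at least 10. The share of shared peaks inside genes (53.8%) went to 41.2% at a −log10 q of at least 10, 50% among peaks at or above the median and 59.5% in the merged list. Over all peaks of a single list, shared or not, the share inside genes was 56.0% in replicate 1 and 51.5% in replicate 2. The SD used as the limit for this share, 3.17, was that of these 2 all-peak values. Leaving out PRR95, an alternative chosen after seeing the data, changed none of the 4 values beyond these limits. In the merged list the share inside genes was taken over a slightly different set of peaks. That list lacked the intergenic place of FvH4_2g24370 and gave the intergenic place of FvH4_6g25290 to another gene. It also classed the peak of FvH4_5g16240 as 5' UTR, where the replicate lists classed it as promoter. No paired analysis was possible because there is 1 group and no test. Depth is unknown, so whether a gene seen in 1 list only was missed in the other for lack of reads cannot be told apart from its not being bound there.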

Other observations

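Several hormone genes lay close to each other in the deposited coordinates. Cytokinin dehydrogenases FvH4_1g07610 and FvH4_1g07620 each had an intergenic peak, in replicate 1 for the first and in replicate 2 for the second, with 683 bp between the peaks, so the lists name different genes for nearby but separate places. The peaks of FvH4_6g04900 (cytokinin dehydrogenase 7-like) and FvH4_6g04960 (GID1C-like) were 21836 bp apart on chromosome 6, and the strongest peak of either was intergenic and upstream of its gene. FvH4_1g04080 (DELLA GAI-like) and FvH4_1g04200 (gibberellin 3-beta-dioxygenase 1-like), each above the 75th percentile of both lists, were 61490 bp apart on chromosome 1. Further neighbouring genes of 1 family with no shared peak at either member were the DELLA pair FvH4_5g39080 and FvH4_5g39090, the 20 oxidase pair FvH4_7g12600 and FvH4_7g12610 and the hydroxylase pair FvH4_7g29611 and FvH4_7g29620.

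The strongest shared place of these genes was the one not kept in the authors' deposited merged list. Of the 39 places 38 were in that list, 37 of them under the same gene, and the missing one was the upstream peak of FvH4_2g24370 (GID1B-like), where 1 replicate 1 peak overlapped 2 replicate 2 peaks and the midpoints of the strongest pair were 212 bp apart. In the authors' deposited merged list the ARR5-like gene FvH4_5g16240 had its peak at 17 bp, in the 5' UTR, where the replicate lists gave -9 and -23 bp in the promoter. Of the regulators left out by the word rule, 3 genes named APRR had a peak, and their values were not analysed here.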
